A study of Mus musculus with 12 samples.

Results

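The genes of the NF-κB subunits and of the IκB proteins were followed across 2 genotypes of mouse embryonic fibroblasts, each with and without transfected double-stranded RNA. The 10 genes were Nfkb1, Nfkb2, Rel, Rela and Relb, which encode the subunits, and Nfkbia, Nfkbib, Nfkbie, Nfkbiz and Bcl3, which encode IκB proteins. They were chosen by name, and matched through the RefSeq accession of each array probe. Earlier results of these data were known when the 10 genes and the lists further on were chosen, so none of their counts is independent evidence. All 10 were among the 15445 genes tested, and 14 of 55681 probes stood for them. The RNA came from 4 groups, each with 3 arrays from separate experiments: GADD34ΔC/ΔC cells (here ΔC) transfected with poly(I:C), untreated ΔC cells, wild-type (WT) cells transfected with poly(I:C) and untreated WT cells. Poly(I:C) is a man-made double-stranded RNA that stands in for the RNA of viruses. It was used here in its high molecular weight form at 2.5 µg/ml for 6 h with a lipid reagent, and no group given the lipid alone was analysed here. ΔC cells carry both copies of Ppp1r15a, the gene of the phosphatase 1 cofactor GADD34, in a form without the C-terminal part, which in the intact protein brings the phosphatase to the translation factor eIF2α. The labels do not say how many embryos or lines each genotype came from, so the p-values measure the spread between these experiments.

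NF-κB is a family of transcription factors built as dimers of Rel family proteins. RelA, RelB and c-Rel (from Rela, Relb and Rel) carry a transactivation domain, while p50 and p52 are cut from the precursors p105 (from Nfkb1) and p100 (from Nfkb2). In resting cells IκB proteins such as IκBα (from Nfkbia), IκBβ (from Nfkbib) and IκBε (from Nfkbie) hold the dimers inactive. Sensors of double-stranded RNA activate the IκB kinase complex, IκB is degraded, and the freed dimers enter the nucleus and switch on inflammatory genes, among them the genes of several of their own inhibitors. IκBζ (from Nfkbiz) and Bcl-3 are nuclear members of the IκB family that bind p50 or p52 on DNA and alter which genes are transcribed.

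Feedback of this kind is read from κB sites, so the promoters that held the κB consensus, a pattern of 10 bases, are shown here before the values. The RefSeq promoter table (build GRCm38.p6) held windows for 7 of the 10 genes, and the 250 bases before the start were searched on both strands, with overlapping matches joined. A match was found for 4 of the 7 genes, against 4.46% of all 27025 genes in the table. The 4 windows follow on the strand of each gene, from 5′ to 3′ up to the base before the start, with the joined matches in capitals. They lie at chr19:46304487-46304736 (+ strand, Nfkb2), chr11:23770970-23771219 (- strand, Rel), chr12:55492648-55492897 (- strand, Nfkbia) and chr17:45555450-45555699 (+ strand, Nfkbie).
Nfkb2: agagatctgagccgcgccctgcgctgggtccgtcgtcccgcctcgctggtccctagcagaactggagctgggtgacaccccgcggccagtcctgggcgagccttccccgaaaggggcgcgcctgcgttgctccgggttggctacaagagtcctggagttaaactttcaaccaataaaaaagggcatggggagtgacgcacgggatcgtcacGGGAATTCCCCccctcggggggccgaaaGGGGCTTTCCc
Rel: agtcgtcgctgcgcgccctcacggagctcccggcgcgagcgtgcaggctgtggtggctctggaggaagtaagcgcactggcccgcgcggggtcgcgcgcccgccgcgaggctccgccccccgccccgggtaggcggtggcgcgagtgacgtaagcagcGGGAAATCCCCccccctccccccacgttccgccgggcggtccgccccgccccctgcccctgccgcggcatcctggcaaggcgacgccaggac
Nfkbia: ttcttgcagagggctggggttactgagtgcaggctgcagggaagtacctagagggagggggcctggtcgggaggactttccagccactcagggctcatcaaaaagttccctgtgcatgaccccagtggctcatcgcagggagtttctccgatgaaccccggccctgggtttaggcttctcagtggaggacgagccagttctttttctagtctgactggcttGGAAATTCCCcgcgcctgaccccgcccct
Nfkbie: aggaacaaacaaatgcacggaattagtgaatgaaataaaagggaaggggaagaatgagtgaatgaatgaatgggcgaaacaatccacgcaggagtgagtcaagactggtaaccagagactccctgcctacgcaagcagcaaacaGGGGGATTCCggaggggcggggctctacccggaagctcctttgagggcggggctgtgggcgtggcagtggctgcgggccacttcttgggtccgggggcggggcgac
In the Nfkb2 window the matches covered bases 39 to 29 and bases 11 to 2 before the start. The Rel match covered bases 92 to 82, the Nfkbia match bases 29 to 20 and the Nfkbie match bases 106 to 97 before the start. Nfkb2 had 2 further windows for other starts, each with 1 match, which are not printed. The windows of Rela, Nfkbib and Bcl3 held no match. A match describes letters in a window and was not tested as a binding site.

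A level here is the log2 of the processed spot intensity minus the 75th percentile of its array, so 0 is that percentile and 1 unit is a doubling. Levels of different genes were not compared, because each probe has its own brightness. The number of arrays limits the precision of every value. All 14 probes of the 10 genes lay well above background on all 12 arrays, and 0 spots were saturated. Arrays of a group correlated across genes at r of 0.98 to 0.996 and arrays of different groups at 0.911 to 0.99. The 4 arrays numbered 3 stood apart from the other 8 on the third principal component, at -45.5 to -24.3 against 2.08 to 31. Ppp1r15a was well above background on no untreated ΔC array and on all 3 untreated WT arrays, at least 486-fold lower in the ΔC cells (limma adjusted p = 6.15e-05). Where its probe lies in the gene was not known, so less transcript and loss of the part the probe reads cannot be told apart. These are bulk RNA samples, in which fewer cells of a type and less RNA per cell cannot be told apart.

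The first comparison asked how the 10 genes answered poly(I:C) in WT cells, and 7 rose: Nfkbie, Nfkbia, Bcl3, Relb, Nfkbiz, Rel and Nfkb2. None of the 10 fell. Over all 15445 genes, 5.24% rose and 1.53% fell. The median log2 change of the 10 genes was 1.26, against -0.14 over all genes. The same 7 genes were those whose treated and untreated WT arrays did not overlap, with the treated arrays higher, a pattern shown by 12% of all genes. In ΔC cells 5 of the 10 rose with poly(I:C), namely Nfkbie, Nfkbiz, Nfkbia, Relb and Rel, where 1.82% of all genes rose. The median log2 change was 0.98 for the 10 genes and -0.05 for all genes. In ΔC cells the treated arrays lay above the untreated ones without overlap for every one of the 10 genes except Nfkb1, a pattern shown by 8.79% of all genes. A change was called at an adjusted p under 0.05 (limma, two-sided, Benjamini-Hochberg over all genes tested).

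**Figure D1:**
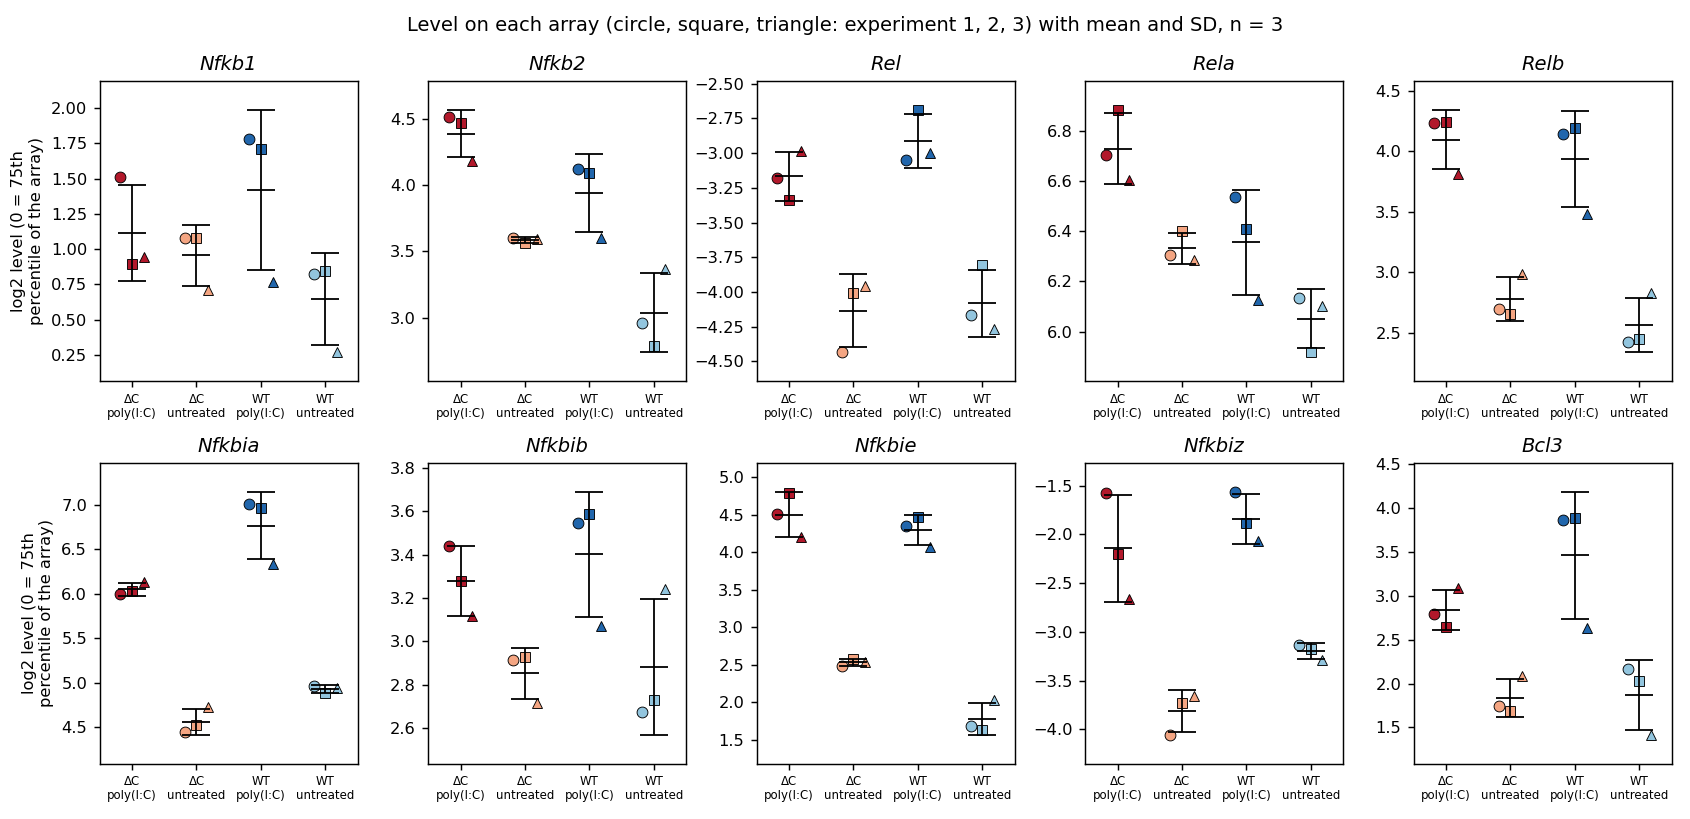
Log2 level of each of the 10 genes on every array (vertical axis, 0 = 75th percentile of the array) in the 4 groups, with a circle, square or triangle for experiment 1, 2 or 3 and bars for the mean and SD of 3 arrays. Nfkbie and Nfkbia separated treated from untreated arrays by more than 1 unit in both genotypes, while the groups of Nfkb1 overlapped, and the scales differ between panels.

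Among the inhibitors that hold NF-κB in the cytoplasm, Nfkbie had the largest log2 change of the 10 genes in both genotypes. It kept that place under all 26 alternative settings in WT cells and under 23 of 26 in ΔC cells. Not all of these settings could alter it. Leaving out an array of the other genotype, or adding the experiment number as a block, left the fitted change as it was. For Nfkbie so did keeping dim probes, averaging the probes of a gene, a trended robust prior and fitting only the groups compared. In ΔC cells Nfkbiz was larger with slide as a block (1.87 against 1.77), with scan day as a block (1.95 against 1.85) and in the authors' table (2.00 against 0.96). Nfkbiz was also larger within ΔC experiment 1 (2.48 against 2.03) and within scan day 1 (2.32 against 1.99). Nfkbie read 4.52, 4.79 and 4.20 in ΔC cells with poly(I:C) and 2.48, 2.58 and 2.54 in untreated ΔC cells. In WT cells it read 4.34, 4.47 and 4.07 with poly(I:C) and 1.69, 1.63 and 2.02 untreated. All 6 treated arrays lay above all 6 untreated arrays, and the untreated ΔC arrays lay above the untreated WT arrays. The log2 change with poly(I:C) was 1.97 ± 0.17 in ΔC cells (SE of the model, limma adjusted p = 0.000237) and 2.51 ± 0.17 in WT cells (adjusted p = 2.28e-05), or 3.92-fold and 5.71-fold.

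Nfkbia, the gene of the IκB that is degraded and resynthesised fastest, gave 5.99, 6.03 and 6.13 in ΔC cells with poly(I:C) and 4.44, 4.52 and 4.72 in untreated ΔC cells. WT cells gave 7.00, 6.96 and 6.33 with poly(I:C) and 4.97, 4.88 and 4.94 untreated. Here the 4 groups did not overlap at all: WT with poly(I:C) was highest, ΔC with poly(I:C) followed, then untreated WT, and untreated ΔC was lowest. The log2 change was 1.49 ± 0.17 in ΔC cells (limma adjusted p = 0.00112) and 1.83 ± 0.17 in WT cells (adjusted p = 0.000151), or 2.81-fold and 3.57-fold.

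Nfkbib, the gene of IκBβ, read 3.44, 3.28 and 3.12 in ΔC cells with poly(I:C) and 2.91, 2.92 and 2.72 in untreated ΔC cells. WT cells read 3.55, 3.58 and 3.07 with poly(I:C) and 2.67, 2.73 and 3.24 untreated. The WT groups overlapped, since the untreated WT array numbered 3 lay above the treated one of the same number. The log2 change did not pass the test in ΔC cells (0.42, 95% interval 0.005 to 0.84, limma adjusted p = 0.454) or in WT cells (0.52, interval 0.10 to 0.94, adjusted p = 0.119). Without WT untreated array 3 the WT change passed (0.70, adjusted p = 0.0311), as it did without WT poly(I:C) array 3 (0.68, adjusted p = 0.039). The WT change also passed for the mean over its probes (0.95, adjusted p = 0.025), with array weights (0.80, 0.000617) and without the 4 arrays numbered 3 (0.86, 0.00171). The ΔC change passed with array weights (0.42, adjusted p = 0.0376) and without the 4 arrays numbered 3 (0.44, 0.034).

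A probe for Nfkbib with a lower signal gave other values, as was found after the data were seen. That probe, A_55_P2051666, read 0.09, -0.25 and -0.66 in ΔC cells with poly(I:C) and -0.86, -0.89 and -1.20 in untreated ΔC cells. In WT cells it read -0.78, -0.76 and -1.53 with poly(I:C) and -3.06, -2.94 and -2.35 untreated. Its untreated WT arrays were the lowest of the 12, and in a fit over 35200 probes its change was 0.71 ± 0.27 in ΔC cells (limma adjusted p = 0.422) and 1.76 ± 0.27 in WT cells (adjusted p = 0.00433). The third Nfkbib probe changed by 0.30 in ΔC cells and by 0.56 in WT cells and passed in neither (adjusted p = 0.673 and 0.12). The probes of Nfkbib therefore gave different sizes for 1 gene, and which transcripts each one reads was not tested.

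The nuclear IκB proteins both responded in WT cells. Nfkbiz read -1.57, -2.20 and -2.66 in ΔC cells with poly(I:C) and -4.05, -3.73 and -3.66 in untreated ΔC cells. In WT cells it read -1.57, -1.89 and -2.07 with poly(I:C) and -3.13, -3.17 and -3.28 untreated. Every treated array was above every untreated array, and the untreated ΔC arrays were the lowest. The log2 change was 1.67 ± 0.25 in ΔC cells (limma adjusted p = 0.00607) and 1.35 ± 0.25 in WT cells (adjusted p = 0.0101). This probe was dim, with intensities of 50 to 292 before scaling, and the size of its change depended on the processing. Over 26 alternative settings the change lay between 1.03 and 2.00 in ΔC cells and between 0.905 and 1.47 in WT cells. Nfkbiz was the only one of the 5 genes called in both genotypes with the larger change in ΔC cells, a difference that did not pass its own test (given with the other differences further on).

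Bcl3, whose protein binds p50 and p52 homodimers, read 2.79, 2.64 and 3.09 in ΔC cells with poly(I:C) and 1.75, 1.68 and 2.09 in untreated ΔC cells. WT cells read 3.86, 3.88 and 2.63 with poly(I:C) and 2.16, 2.03 and 1.42 untreated. The array numbered 3 was the lowest of its group in both WT groups, by over 1 unit in the treated one. The log2 change was 1.58 ± 0.33 in WT cells (limma adjusted p = 0.019). In ΔC cells it was 1.00 (95% interval 0.27 to 1.73), which did not pass (adjusted p = 0.277), although all 3 treated arrays lay above the untreated ones. Without WT poly(I:C) array 3 the ΔC change passed at the same size (adjusted p = 0.0455).

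Among the subunits, Relb rose in both genotypes. RelB pairs with p52 in the noncanonical branch of the pathway. Its gene read 4.23, 4.24 and 3.82 in ΔC cells with poly(I:C) and 2.70, 2.66 and 2.99 in untreated ΔC cells. In WT cells the levels were 4.14, 4.19 and 3.48 with poly(I:C) and 2.42, 2.45 and 2.83 untreated. The treated arrays lay above all untreated ones, with array 3 the lowest treated and the highest untreated array in each genotype. Relb changed by 1.32 ± 0.22 in ΔC cells (limma adjusted p = 0.0106) and by 1.37 ± 0.22 in WT cells (adjusted p = 0.00395), and its other probe gave 1.27 and 1.37.

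Rel, the gene of c-Rel, was a dim probe in all groups. It read -3.18, -3.34 and -2.99 in ΔC cells with poly(I:C) and -4.43, -4.01 and -3.96 in untreated ΔC cells. The WT levels were -3.05, -2.69 and -3.00 with poly(I:C) and -4.17, -3.81 and -4.27 untreated. The treated arrays did not overlap with the untreated ones in either genotype, and the genotypes overlapped under both conditions. The log2 change was 0.97 ± 0.18 in ΔC cells (limma adjusted p = 0.023) and 1.17 ± 0.18 in WT cells (adjusted p = 0.00358). Its size depended on the processing: over 26 alternative settings it lay between 0.559 and 1.24 in ΔC cells and between 0.597 and 1.30 in WT cells.

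Nfkb2, the gene of p100 and p52, read 4.51, 4.47 and 4.18 in ΔC cells with poly(I:C) and 3.60, 3.56 and 3.60 in untreated ΔC cells. WT cells read 4.12, 4.09 and 3.60 with poly(I:C) and 2.96, 2.79 and 3.37 untreated. The treated ΔC arrays were the highest 3 of the 12 and the untreated WT arrays the lowest 3. The log2 change was 0.90 ± 0.18 in WT cells, which passed (limma adjusted p = 0.0178). In ΔC cells it was 0.80 (95% interval 0.39 to 1.21), which did not (adjusted p = 0.0673). The ΔC change passed at the same size without WT poly(I:C) array 3 (adjusted p = 0.032) or WT untreated array 3 (0.0387).

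Nfkb1, the gene of p105 and p50, read 1.51, 0.89 and 0.94 in ΔC cells with poly(I:C) and 1.08, 1.08 and 0.71 in untreated ΔC cells. In WT cells it read 1.78, 1.71 and 0.77 with poly(I:C) and 0.82, 0.84 and 0.27 untreated. Treated and untreated arrays overlapped in both genotypes, and array 3 was the lowest of each WT group. The log2 change was 0.16 in ΔC cells (95% interval -0.49 to 0.81, limma adjusted p = 0.884) and 0.77 in WT cells (interval 0.13 to 1.42, adjusted p = 0.129). With the experiment number as a block, the WT change of Nfkb1 passed at the same size (limma adjusted p = 0.0417). Without WT poly(I:C) array 3 it passed at 1.10 (adjusted p = 0.0182).

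Rela, the gene of the subunit p65, read 6.70, 6.88 and 6.60 in ΔC cells with poly(I:C) and 6.31, 6.40 and 6.29 in untreated ΔC cells. WT cells read 6.54, 6.41 and 6.13 with poly(I:C) and 6.14, 5.92 and 6.10 untreated. The span of Rela over all 12 arrays was under 1 unit, with treated ΔC arrays the highest. The log2 change did not pass in ΔC cells (0.40, 95% interval 0.10 to 0.69, limma adjusted p = 0.281) or in WT cells (0.30, interval 0.01 to 0.60, adjusted p = 0.177). It passed with array weights in ΔC cells (adjusted p = 0.0266) and in WT cells (0.0138), and without the 4 arrays numbered 3 in WT cells (0.0372).

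**Figure D2:**
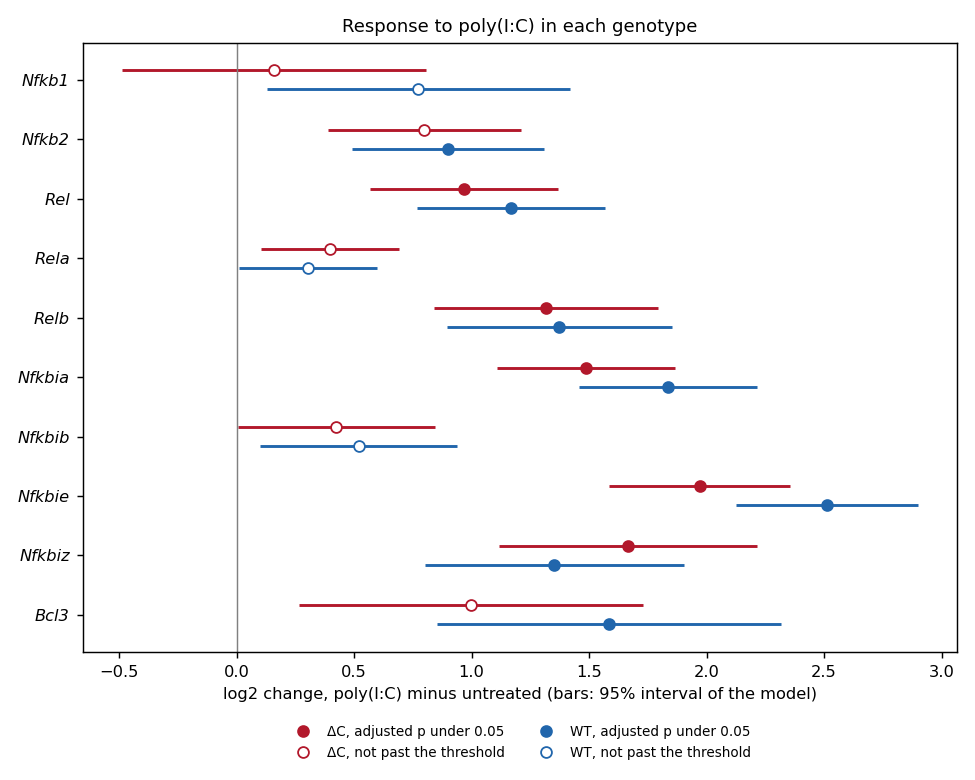
Log2 change with poly(I:C) (horizontal axis, treated minus untreated) of each gene in ΔC and in WT cells, with bars for the 95% interval of the model and filled points for an adjusted p under 0.05. Nfkbie lies furthest to the right in both genotypes, at 1.97 in ΔC and 2.51 in WT cells, and Nfkb1, Rela and Nfkbib have open points in both.

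The WT calls of Nfkbia, Nfkbie, Rel, Relb and Nfkbiz passed under 26, 25, 25, 24 and 22 of 26 alternative settings, and those of Bcl3 and Nfkb2 under 19 and 17. The Nfkbiz call in WT cells was lost without WT poly(I:C) array 1 (adjusted p = 0.0586). The Bcl3 call was lost without WT poly(I:C) array 1 (0.101), WT poly(I:C) array 2 (0.0974) or WT untreated array 2 (0.0545). The Nfkb2 call was lost without any 1 of the WT arrays numbered 1 or 2 (0.0765 to 0.0983). Without WT poly(I:C) array 1, 4 of the 10 genes rose in WT cells, where 2.34% of all genes rose. With array weights, and also without the 4 arrays numbered 3, all 10 rose in WT cells, where the share of all genes that rose was 16.1% and 13%.

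In ΔC cells the calls of Nfkbie, Nfkbia, Nfkbiz, Relb and Rel passed under 25, 24, 23, 17 and 14 of the 26 settings. The ΔC calls of Relb and Rel were each lost without 1 of 4 ΔC arrays, at adjusted p of 0.0555 to 0.064 for Relb (arrays 1 and 2 of both ΔC groups) and 0.0645 to 0.0992 for Rel (ΔC poly(I:C) arrays 1 and 3, ΔC untreated arrays 1 and 2). Without ΔC poly(I:C) array 1, ΔC untreated array 1 or ΔC untreated array 2, 3 of the 10 genes rose in ΔC cells. Of all genes, 1.01%, 1.03% and 0.993% rose in these fits.

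The response was also read within each experiment, as the treated minus the untreated array of the same number. In ΔC cells the change of Nfkbie was 2.03, 2.21 and 1.66 in experiments 1, 2 and 3, and in WT cells 2.66, 2.84 and 2.05. For Nfkbia the ΔC changes were 1.55, 1.51 and 1.41 and the WT changes 2.04, 2.08 and 1.39. Experiment 3 thus gave the smallest change for both genes in both genotypes. Relb changed by 1.53, 1.59 and 0.83 in ΔC cells and by 1.72, 1.75 and 0.66 in WT cells. Below 0 were only Nfkb1 in experiment 2 in ΔC cells (-0.19) and Nfkbib in experiment 3 in WT cells (-0.17). Nfkb2 changed by 1.17 and 1.30 in experiments 1 and 2 but by 0.23 in experiment 3 in WT cells, where its untreated array was the highest of its group. Rel was the exception among the called genes in WT cells, with its largest change, 1.27, in experiment 3.

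**Figure D3:**
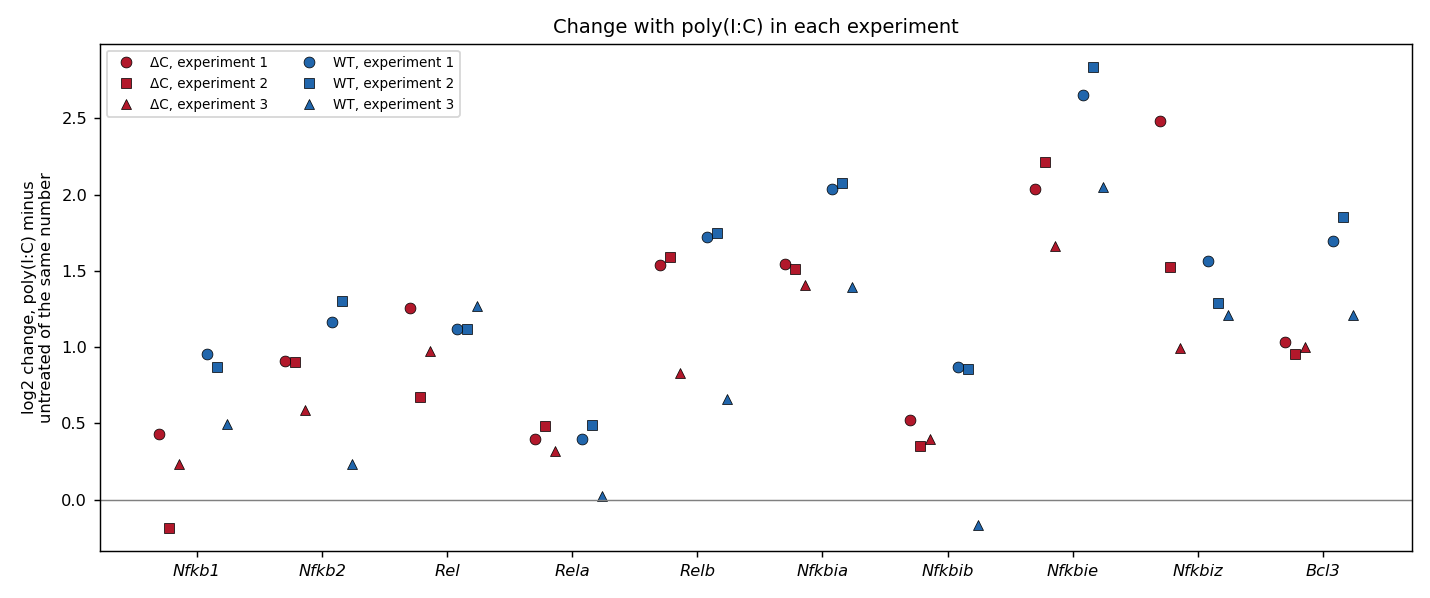
Log2 change with poly(I:C) (vertical axis, treated minus untreated array of the same number) of each gene in each of 3 experiments, for ΔC and WT cells. Triangles mark experiment 3, which gave the smallest WT change for 9 of the 10 genes, all except Rel.

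Slides and scan days were not balanced over the groups, so the changes were also read within them. Scan day 2 held only untreated WT and treated ΔC arrays, and scan day 3 only treated WT and untreated ΔC arrays. Between these days, scan day cannot be told apart from treatment within a genotype, or from genotype within a treatment. Slide 1 held 1 treated and 1 untreated ΔC array, and the 10 changes there lay between 0.40 (Rela) and 2.48 (Nfkbiz). Slide 2 held 1 treated and 1 untreated WT array, with changes between 0.49 (Rela) and 2.84 (Nfkbie). On scan day 1 the changes lay between 0.35 and 2.32 in ΔC cells and between 0.55 and 2.77 in WT cells. All 10 genes were thus above 0 within each of these batches. The slide 1 pair was that of ΔC experiment 1 and the slide 2 pair that of WT experiment 2, so these repeat the readings by experiment. Scan day 1 held the same arrays among others, and no array numbered 3 entered any of these readings. The other slides and scan days held no pair of treated and untreated arrays of 1 genotype.

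The second question was whether ΔC cells differed from WT cells before treatment. Of the 10 genes only Nfkbie differed in the test, at 0.75 ± 0.17 higher on the log2 scale in untreated ΔC cells, or 1.68-fold (limma adjusted p = 0.0132). Over all genes 10.9% were called higher and 10.2% lower, so 1 call among 10 genes is near the share of all genes. The median log2 difference was 0.09 for the 10 genes and -0.06 for all genes. The ΔC and WT arrays did not overlap for 5 of the 10 genes, a pattern that 17.6% of all genes showed with ΔC higher and 19.6% with ΔC lower. These were Nfkbie, Nfkb2 and Rela with ΔC higher and Nfkbia and Nfkbiz with ΔC lower.

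For the 4 that did not pass, the log2 difference was 0.55 for Nfkb2 (95% interval 0.14 to 0.96, adjusted p = 0.059) and 0.28 for Rela (-0.02 to 0.57, adjusted p = 0.164). It was -0.37 for Nfkbia (-0.74 to 0.01, adjusted p = 0.155) and -0.62 for Nfkbiz (-1.17 to -0.07, adjusted p = 0.105). Nfkb1 (0.31, interval -0.34 to 0.96) and Relb (0.21, interval -0.26 to 0.69) had overlapping arrays. The differences of Rel, Nfkbib and Bcl3 were -0.05, -0.03 and -0.03, with intervals of -0.45 to 0.35, -0.45 to 0.39 and -0.76 to 0.70. The dim Nfkbib probe, by contrast, read 1.80 ± 0.27 higher in untreated ΔC cells (limma adjusted p = 0.00206). Without WT poly(I:C) array 3 the Nfkbia difference passed (adjusted p = 0.0363). The Nfkbiz difference passed once ΔC poly(I:C) array 1 was left out (0.0426). The Nfkbie call passed under 22 of 26 settings and was lost without ΔC untreated array 2 (0.0519), with median scaling (0.071), with the slide as a block (0.108) and in the authors' table (0.506). Within slide 2 its difference was 0.95 and within scan day 1 it was 0.90. Nfkb2 passed under 8 of the 26 settings, among them without WT untreated array 3 (0.71, adjusted p = 0.0212) and without WT poly(I:C) array 3 (0.55, adjusted p = 0.0353).

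After poly(I:C), Nfkbia was the only one of the 10 genes whose level differed between ΔC and WT cells in the test. It was 0.71 ± 0.17 lower on the log2 scale in treated ΔC cells (limma adjusted p = 0.015), at 0.61 times the WT level. Over all genes 9.04% were called lower and 11.9% higher, so here too 1 call among 10 genes is near the share of all genes. The median log2 difference was -0.19 for the 10 genes and 0.01 for all genes. Treated arrays of the 2 genotypes did not overlap for Nfkbia, with ΔC lower (18.9% of all genes), and for Nfkb2 and Rela, with ΔC higher (21.7% of all genes).

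The difference was 0.45 for Nfkb2 (95% interval 0.04 to 0.86, adjusted p = 0.112) and 0.37 for Rela (0.08 to 0.67, adjusted p = 0.073), neither of which passed. Bcl3 gave -0.62 (-1.35 to 0.11, adjusted p = 0.216) with overlapping arrays. Without WT poly(I:C) array 3 it passed at -1.03 (adjusted p = 0.0128). The other 6 genes gave differences between -0.30 (Nfkb1 and Nfkbiz) and 0.21 (Nfkbie), with adjusted p of 0.353 (Rel) and above. The Nfkbia call passed under 19 of 26 settings. It was lost without WT poly(I:C) array 1 (0.068) or array 2 (0.0687) or ΔC poly(I:C) array 1 (0.0531), with the slide as a block (0.122), and in a fit of the 6 treated arrays alone (0.0633). It was also lost in the authors' table, with and without the column that did not match its array (0.0926 with it, 0.0795 without it). Within slide 1 the Nfkbia difference was -1.01 and within scan day 1 it was -0.99.

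**Figure D4:**
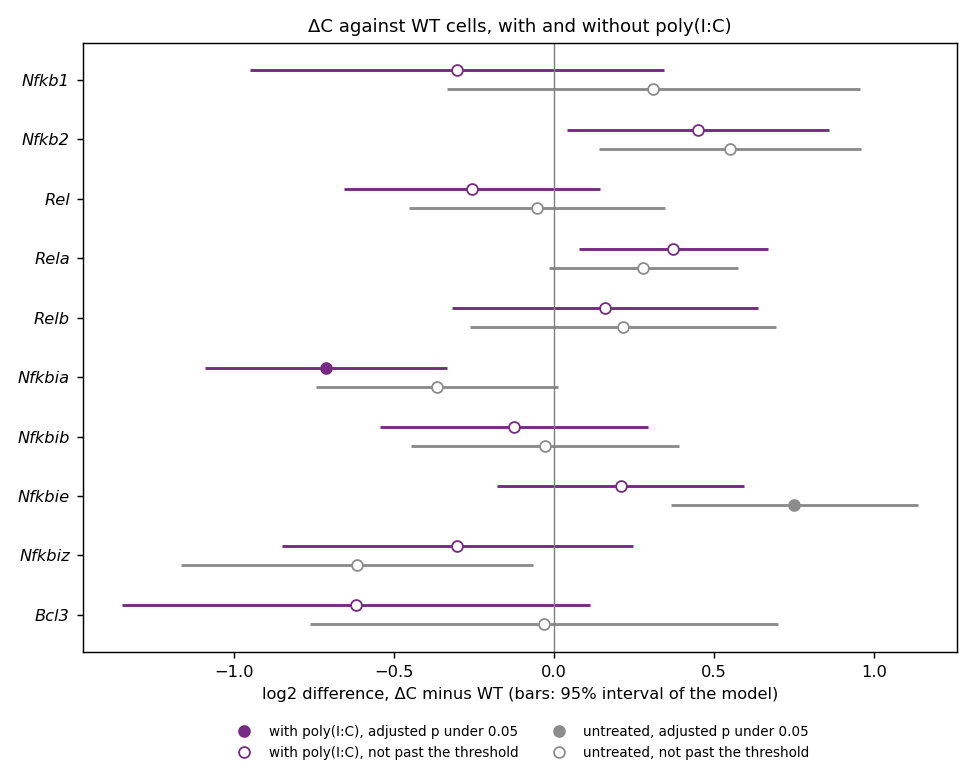
Log2 difference between ΔC and WT cells (horizontal axis, ΔC minus WT) of each gene with poly(I:C) and untreated, with bars for the 95% interval of the model and filled points for an adjusted p under 0.05. The filled points are Nfkbia with poly(I:C), at -0.71, and Nfkbie untreated, at 0.75.

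The last comparison asked whether the response itself differed between the genotypes, as the ΔC change minus the WT change. None of the 10 genes passed this test, and 0.0194% of all genes did. At an unadjusted p under 0.05 the count of the 10 genes, each by its brightest probe, was 0 as well. The dim Nfkbib probe A_55_P2051666, in the fit over 35200 probes, gave -1.05 ± 0.39 (limma unadjusted p = 0.0214, adjusted p = 0.77). Without the 4 arrays numbered 3, Bcl3 passed (-0.78, limma adjusted p = 0.0484), in a fit that called 3.1% of all genes, and 6 of the 10 genes had an unadjusted p under 0.05. Without WT poly(I:C) array 3 alone, 4 of the 10 were under 0.05 unadjusted and 0 passed after adjustment. With array weights the unadjusted count was 5 and the adjusted count 0, with Nfkbie at an adjusted p of 0.0538. With the experiment number as a block, Nfkb1 came nearest (limma unadjusted p = 0.0452, adjusted p = 0.601). Nfkbie fell under 0.05 unadjusted with a trended robust prior (0.0355), without WT untreated array 3 (0.0224) and without ΔC poly(I:C) array 2 (0.0166). None of the 10 passed after adjustment in these settings. In the main fit, by the brightest probe of each gene and with all 12 arrays weighted alike, Nfkbie came nearest, at -0.54 (95% interval -1.09 to 0.003, limma adjusted p = 0.918). Differences for Nfkb1, Bcl3 and Nfkbia were -0.61 (-1.53 to 0.30), -0.59 (-1.62 to 0.45) and -0.35 (-0.88 to 0.19). Nfkbiz gave 0.31 (-0.46 to 1.09), with the larger change in ΔC cells. The remaining 5 lay between -0.20 (Rel) and 0.09 (Rela), with intervals that reached from -0.77 (Rel) to 0.62 (Relb). Within scan day 1, the only batch with all 4 groups, the difference was -0.79 for Nfkbie, -0.59 for Nfkbia and 0.87 for Nfkbiz.

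Other genes of the pathway were counted from lists. Of 35 genes of the IκB kinase complex and its activators, 3 rose with poly(I:C) in ΔC cells and 7 in WT cells, and 0 fell in either. Over all genes 1.82% rose in ΔC cells and 5.24% in WT cells. The median log2 change was 0.09 in ΔC cells and 0.26 in WT cells, against -0.05 and -0.14 over all genes. The largest rises were those of Map3k8, the kinase Tpl2 held by p105 (2.79 ± 0.46 in ΔC cells, 2.50 ± 0.46 in WT cells), and of Traf1, a signalling adaptor (1.89 ± 0.35 in both). Map3k14, the kinase NIK that drives p100 processing, was the third gene called in ΔC cells (0.77 ± 0.13, limma adjusted p = 0.0106) and also rose in WT cells (0.57 ± 0.13, adjusted p = 0.0249). The kinase subunit genes Chuk and Ikbkb and the scaffold gene Ikbkg passed in neither genotype, with log2 changes of -0.09, -0.03 and 0.09 in ΔC cells and 0.09, 0.26 and -0.04 in WT cells. Tbk1 and Ikbke, the kinases of the interferon arm, gave 0.45 and 0.74 in ΔC cells and 0.58 and 0.77 in WT cells and passed in neither.

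None of 15 genes of IκB turnover and of p100 or p105 processing passed in either response (limma), with log2 changes of -0.44 to 0.02 in ΔC cells and -0.51 to 0.12 in WT cells. Of all genes, 1.84% were called in either direction in ΔC cells and 6.77% in WT cells. Brakes on NF-κB signalling rose for 4 of 18 genes in ΔC cells and 5 in WT cells, where 1.82% and 5.24% of all genes rose. Usp18, which removes ISG15 from proteins and damps interferon signalling, had the largest change (4.80 ± 0.50 in ΔC cells, 7.83 ± 0.50 in WT cells). Tnfaip3, which encodes the ubiquitin-editing enzyme A20, rose by 3.52 ± 0.25 in ΔC cells (limma adjusted p = 7.67e-05) and by 3.82 ± 0.25 in WT cells (adjusted p = 1.78e-05). Among κB-regulated target genes 17 of 28 rose in ΔC cells and 18 in WT cells, where 1.82% and 5.24% of all genes rose. Their median log2 changes were 2.00 and 2.59, against -0.05 and -0.14 over all genes. The cytokine gene Il6 was well above background on no untreated WT array and was at least 1068-fold higher in treated WT cells, and it changed by 7.95 ± 0.39 on the log2 scale in ΔC cells. Cxcl10, an interferon-induced chemokine gene, rose by 4.64 ± 0.22 in ΔC cells and 6.87 ± 0.22 in WT cells. Cxcl2, a chemokine gene for neutrophils, was on no untreated array of either genotype well above background and was at least 34.5-fold higher with poly(I:C) in ΔC cells and at least 15.9-fold higher in WT cells.

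**Figure D5:**
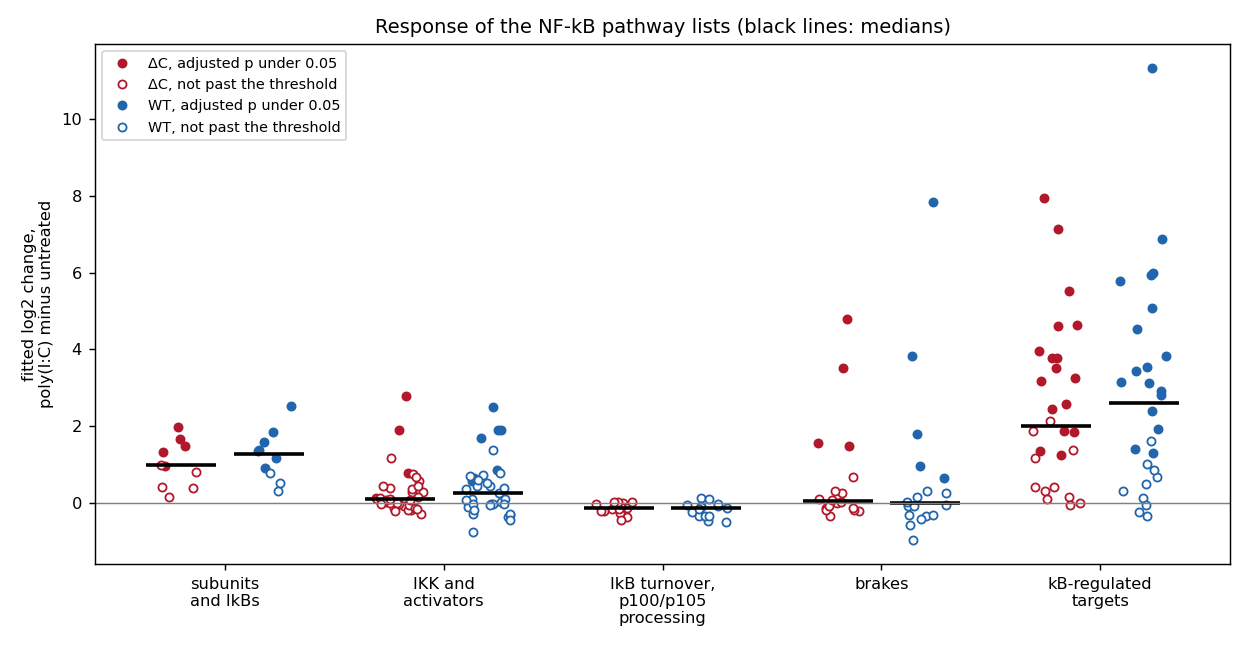
Fitted log2 change with poly(I:C) (vertical axis, treated minus untreated) of every tested gene of 5 pathway lists in ΔC and WT cells, with filled points for an adjusted p under 0.05 and black lines for medians. The genes of the subunits and IκBs had medians of 0.98 in ΔC and 1.26 in WT cells, between those of the kinase list (0.09 and 0.26) and of the target genes (2.00 and 2.59).

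Between genotypes, the pathway lists held calls in both directions. Of the 35 kinase and activator genes, 2 were higher and 4 lower in untreated ΔC than in untreated WT cells, where 10.9% and 10.2% of all genes were called. With poly(I:C), 1 was higher and 5 lower, where 11.9% and 9.04% of all genes were called. Tbkbp1, whose protein binds TBK1, was higher in ΔC cells in both states (2.08 ± 0.34 with poly(I:C), 2.62 ± 0.34 untreated). Ticam1, the gene of the adaptor TRIF, was 0.62 ± 0.16 higher in untreated ΔC cells. Traf1 was lower in ΔC cells in both states (-1.44 ± 0.35 with poly(I:C), -1.43 ± 0.35 untreated). The adaptor gene Myd88 was lower with poly(I:C) (-1.82 ± 0.27), and the kinase gene Irak1 was lower in both states (-0.96 ± 0.12 with poly(I:C), -1.22 ± 0.12 untreated).

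Of the 15 turnover genes, 1 was higher and 2 were lower in ΔC cells with poly(I:C), and 0 were higher and 3 lower untreated. Over all genes 11.9% were higher and 9.04% lower with poly(I:C), and 10.9% and 10.2% untreated. Ube2m, an enzyme of NEDD8 conjugation, was lower in both (-0.59 ± 0.13 with poly(I:C), -0.60 ± 0.13 untreated), as was the ubiquitin-conjugating enzyme gene Ube2d2a (-0.51 ± 0.13 and -0.65 ± 0.13), and Uba3 was 0.44 ± 0.13 higher with poly(I:C). Among the 18 brakes, 2 were higher and 3 lower in ΔC cells with poly(I:C), and 1 was higher and 3 lower untreated. The ubiquitin ligase gene Itch was higher in both states (0.68 ± 0.16 with poly(I:C), 0.51 ± 0.16 untreated) and Traf4 with poly(I:C) (0.61 ± 0.19). Usp18 (-2.01 ± 0.50) and N4bp1 (-1.11 ± 0.29) were lower with poly(I:C), and the phosphatase gene Dusp1 was lower untreated (-0.81 ± 0.19). Commd1 was lower in both states (-0.73 ± 0.18 with poly(I:C), -0.82 ± 0.18 untreated).

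Of the 28 target genes, 2 were higher and 9 lower in ΔC cells with poly(I:C), and 3 were higher and 7 lower untreated. The shares of all genes were 11.9% higher and 9.04% lower with poly(I:C), and 10.9% and 10.2% untreated. The chemokine gene Cxcl5 had the largest deficit in both states (-6.43 ± 0.69 with poly(I:C), -7.82 ± 0.69 untreated). Cxcl1, a chemokine gene, was 3.80 units lower in untreated ΔC cells (-3.80 ± 0.22), and Saa3, a serum amyloid gene, was lower with poly(I:C) (-3.61 ± 0.72). Il6 was at least 2.38-fold higher and Vcam1, an adhesion gene, 1.63 ± 0.34 higher in untreated ΔC cells. With poly(I:C), Cxcl2 (0.95 ± 0.22) and the survival gene Bcl2l1 (0.59 ± 0.17) were the 2 higher genes. Cxcl1 was the only gene of these lists with a called difference between the responses, at 3.13 ± 0.31 (limma adjusted p = 0.0176).

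Of 3 further genes with IκB-like proteins or NF-κB repression, none passed in either response. Nfkbid, which encodes the nuclear IκB protein IκBNS, was higher in ΔC than in WT cells in both states, by 3.70 ± 0.40 with poly(I:C) (limma adjusted p = 0.000206) and 2.34 ± 0.40 untreated (adjusted p = 0.00282). Its log2 change with poly(I:C) was 1.57 ± 0.40 in ΔC cells (adjusted p = 0.106) and 0.21 ± 0.40 in WT cells (adjusted p = 0.754). Nkrf, an NF-κB repressor gene, was 0.81 ± 0.19 lower in ΔC cells with poly(I:C) (adjusted p = 0.0127), and Nfkbil1 passed in no comparison.

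The arrays of the 2 genotypes also differed in cell type markers. Of 10 tested fibroblast markers, 3 were lower in ΔC cells with poly(I:C) and 4 untreated, and 0 were higher. Over all genes 9.04% were lower with poly(I:C) and 10.2% untreated. Col3a1, a fibrillar collagen gene, was the furthest apart (-3.56 ± 0.65 with poly(I:C), -3.64 ± 0.65 untreated). The log2 summed level of 11 fibroblast markers was 8.61 to 9.49 in ΔC cells with poly(I:C), 8.61 to 9.50 in untreated ΔC cells, 9.74 to 9.97 in WT cells with poly(I:C) and 10.04 to 10.26 in untreated WT cells. Of these 11, 9 were well above background on all 12 arrays, and Lum was above background on none. Epcam and Cdh1, which mark epithelial cells, were well above background on all 6 ΔC arrays and on no WT array, at least 8.73-fold and 2.06-fold higher with poly(I:C) and at least 8.01-fold and 1.64-fold higher untreated. The summed level of the 7 epithelial markers was 0.64 to 1.73 in ΔC cells with poly(I:C), 0.92 to 1.93 in untreated ΔC cells, -0.42 to 2.04 in WT cells with poly(I:C) and -0.60 to 2.32 in untreated WT cells, and Krt8 was lower in untreated ΔC cells (-1.91 ± 0.43). Of 7 tested leukocyte markers, 1 was lower in ΔC cells with poly(I:C) and 3 untreated, and the summed level of 10 was 3.68 to 3.86 in ΔC cells with poly(I:C), 3.54 to 3.93 in untreated ΔC cells, 4.05 to 4.21 in WT cells with poly(I:C) and 4.55 to 4.74 in untreated WT cells. Of the 10 leukocyte markers 6 were well above background on all 12 arrays (Ptprc, Itgam, Adgre1, Csf1r, Cd3e and Cd14), as were 4 of the 7 epithelial and 3 of the 6 endothelial markers (Pecam1, Kdr and Vwf). The leukocyte transcripts Lyz2 and Spi1 and the endothelial transcripts Cdh5, Tek and Tie1 were well above background on no array. The sum of 6 endothelial markers was 3.64 to 4.16 in ΔC cells with poly(I:C), 3.63 to 3.98 in untreated ΔC cells, 3.98 to 4.04 in WT cells with poly(I:C) and 3.92 to 4.47 in untreated WT cells. Each of these sums was taken before the log2, so the brightest probes of a list weigh most in it. Kdr alone read 3.61 to 4.15 in ΔC cells with poly(I:C), and Itgam of the leukocyte list 2.78 to 3.21. Vwf was 1.64 ± 0.30 lower in treated ΔC cells. No fibroblast, leukocyte or epithelial marker passed in either response to poly(I:C), while Vwf rose in WT cells (1.49 ± 0.30). The part of these differences in the genotype values of Nfkbie and Nfkbia was not tested.

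Across the 12 arrays, which fall into the 4 groups and share them, the 10 genes did not all follow 1 pattern. As a description with no test, Relb and Nfkbie had the highest Pearson r of any pair (0.97), and Nfkb2 and Rela had 0.929. Nfkbia had 0.937 with Bcl3, 0.936 with Rel and 0.929 with Nfkbiz. Rela had its lowest values with Nfkbia (0.468) and Rel (0.477). Nfkb2 and Rela were the pair with treated ΔC arrays highest, and Nfkbia had treated WT arrays highest.

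Of all tested genes, those most like each member over the 12 arrays were taken as the 3 with the highest Pearson r, again with no test. Nfkbie was most like Oasl1, H2bc4 and BC049762 (0.987 to 0.992), and Nfkbia was most like Ifna13, Ifna16 and Helz2 (0.989 to 0.992). Relb was closest to Madcam1, Pvt1 and Arid5a (0.978 to 0.987), and Nfkb2 to Hpx, Stk40 and Cnbd2 (0.972 to 0.982). Rel was closest to Zfp36, Ccl4 and Tnf (0.957 to 0.973), of which Ccl4 and Tnf encode a chemokine and a cytokine. For Nfkbiz the genes were Gm11563, 4933433H22Rik and Egr1 (0.963 to 0.973), and for Bcl3 they were Cxcl9, Nfil3 and Plekha4 (0.968 to 0.97). Rela was most like Rab20, N4bp3 and Rbp7 (0.952 to 0.969), and Nfkbib was most like Riok2, Slc3a2 and Pdcd2 (0.941 to 0.962). Nfkb1 had the weakest such likeness, with Xrn1, 4933412E12Rik and Armc8 (0.92 to 0.936). The interferon alpha genes share sequence, so probes for Ifna13 and Ifna16 may not tell them apart.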

How the data were processed

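RNA of 12 samples was measured on 1-colour Agilent arrays. Per the file headers, each deposited scanner file, read with Feature Extraction 10.7.3.1, gives the processed intensity of 62976 spots, background-subtracted and not normalized between arrays. A table of log2 values from the authors, with 1 value per probe, was made with limma per the submitters' processing notes (version and steps not given in the sources used here). One of its 12 columns, ΔC poly(I:C) 1, did not follow its own array (r = 0.949 across probes, against 0.974 with WT untreated 1), so it served as an alternative only. Its scale is log2, its columns share a median of 5.28, and any further centring is unknown.

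From the scanner files, the log2 intensity was averaged over the spots of a probe and the 75th percentile of each array was subtracted. Control and outlier spots were left out. Probes were named through RefSeq accessions (27235 of 55681), and a gene was tested where, in at least 1 group, all 3 arrays read a probe well above background. The brightest such probe stood for its gene. The 5 contrasts were fitted with limma 3.58.1 in R 4.3.3, with 1 mean per group over all 12 arrays, a two-sided test, Benjamini-Hochberg adjustment over 15445 genes and a threshold of 0.05, and the steps were tested on simulated data. Responses and genotype comparisons share arrays, so their values are given side by side only. Where no array of a group was well above background, a bound is given, against the lowest signal well above background on each array. Arrays have no count depth.

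All 10 genes are named with their values, and from each other list, per comparison, up to 2 called genes in each direction by size of change, besides kinase, κB-like and marker genes named as such. The members and lists were chosen with earlier results of these data known. Experiment numbers were taken to pair the arrays: the deposited design text gives separate experiments, and deviations from the group means correlated at 0.115 to 0.651 between arrays of a number. The main fit did not use this pairing. With the number as a block, 8.29% of all genes were called in the WT response, against 6.77% without it. For the difference between the responses the shares were 0.265% and 0.0194%. In the alternative with normexp (offset 50), the median spot signal was used.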

Additional observations from a re-analysis of the deposited data

How the results depend on the processing

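Each count of the 10 genes was recomputed under 14 other settings and without each array in turn. Leaving out 1 array gave 4 to 9 rises in WT cells (7 reported) and 3 to 7 in ΔC cells (5 reported). Over all genes these fits called 2.34% to 8% as rises in WT cells and 0.993% to 2.26% in ΔC cells. Between genotypes it gave 0 to 2 higher and 0 to 1 lower genes untreated (1 and 0 reported), and 0 to 2 lower genes with poly(I:C) (1 reported). With the slide as a block, the WT response had 3 rises and the ΔC response 1, and no gene was called between genotypes (0 higher untreated, 0 lower with poly(I:C)). With the scan day as a block each response had 3 rises. The authors' table gave 2 rises in WT and 0 in ΔC cells and no genotype call (0 and 0). Leaving the mismatched column out of that table gave 3 rises in ΔC cells, 3 higher untreated and 1 higher and 0 lower with poly(I:C). Median scaling gave 3 rises in ΔC cells and 0 higher untreated. Quantile normalization gave 3 higher untreated and 1 higher with poly(I:C), and normexp and the mean over probes each gave 2 higher untreated. Array weights gave 10 rises in WT and 9 in ΔC cells, 3 higher and 2 lower untreated, and 2 higher and 2 lower with poly(I:C). That setting raised calls across all genes too, to 8.13% rises in ΔC cells (1.82% reported), 23% higher and 25% lower untreated, and 24.5% higher and 20.4% lower with poly(I:C). With only the groups compared, ΔC cells had 3 rises, 1 gene was lower untreated and 0 lower with poly(I:C). The trended robust prior gave 2 higher untreated and 1 higher with poly(I:C). Without the 4 arrays numbered 3, 10 genes rose in WT and 8 in ΔC cells, 2 were higher and 2 lower untreated, 1 was higher and 2 were lower with poly(I:C), and 1 response was smaller in ΔC cells (Bcl3). Over all genes this setting called 6.53% as rises in ΔC cells, 17.7% higher and 18.2% lower untreated, 20.6% and 16.9% with poly(I:C), and 2.43% with a smaller response in ΔC cells. The slide block and the authors' table lowered calls across all genes, to 1.44% and 2.23% rises in WT cells and to 0.544% and 0% in ΔC cells. With the scan day as a block 3.11% of all genes rose in WT cells and 0.932% in ΔC cells. In ΔC cells 1.34% rose with median scaling, 1.17% with only the groups compared and 1.01% in the authors' table without the mismatched column. The experiment number as a block changed the call of Nfkb1 in WT cells (0.77, adjusted p = 0.0417) and no other call of the 10 genes. Median scaling moved the median of all genes from -0.05 to -0.19 in the ΔC response, and changes relative to that median were the same.

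No called change turned its sign under any setting. Among values that did not pass, signs turned for the untreated genotype differences of Bcl3 (0.039 with median scaling, 0.006 with quantile normalization and in the authors' table with and without its mismatched column, 0.061 with scan day and 0.132 with slide as a block, -0.257 to 0.115 without 1 array), Rel (0.017 with median scaling, 0.01 with quantile normalization, 0.011 in both forms of the authors' table, -0.146 to 0.096 without 1 array) and Nfkbib (0.166 with array weights, 0.041 with median scaling, 0.053 with quantile normalization, 0.686 for the mean over probes, 0.082 with scan day and 0.06 with slide as a block, 0.052 in both forms of the authors' table, 0.217 without the arrays numbered 3, 1.801 and 0.287 for its other probes, -0.133 to 0.15 without 1 array). With poly(I:C) they turned for Nfkbib (0.216 for the mean over probes, 0.751 and 0.021 for its other probes), Nfkbie (-0.765), Nfkbiz (0.037) and Relb (-0.284, and -0.071 to 0.298 without 1 array) in the authors' table, and Rel (0.02 with slide as a block). For the difference between responses they turned for Rel (0.102 with either block), Nfkbiz (-0.04 in the authors' table less the column that did not match) and Rela (-0.118 with median scaling, -0.053 with normexp, -0.206 with either block, -0.086 in the authors' table, -0.007 without the arrays numbered 3, -0.022 to 0.182 without 1 array). Without 1 array they also turned for Nfkb2 (-0.269 to 0.025), Nfkbib (-0.274 to 0.008) and Relb (-0.286 to 0.083). The ΔC response of Nfkb1 was -0.034 in the authors' table less its mismatched column, and -0.038 to 0.271 without 1 array. The other probes were added after the data were seen. The cause of these changes was not tested.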
